A study of Homo sapiens with 4 samples.

Results

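The genes of glucose use were followed in leukemia cells after degradation of the BET proteins. The set held 35 genes, chosen by name: 5 transporters of glucose and lactate, 19 enzymes of glycolysis and lactate formation, 4 genes that set the level of fructose 2,6-bisphosphate, and 7 genes of the pentose phosphate pathway. All 35 were found among the 64252 gene identifiers of the deposited count table, and all 35 passed the filter on low counts that left 17971 genes for testing. TIGAR passed it only through the libraries of the treated cells. RNA was sequenced from cells labelled NB4, an acute promyelocytic leukemia line that carries the PML-RARA fusion. One group received 8 μM dBET1 for 24 h (2 libraries) and the other received DMSO, its solvent, for 24 h (2 libraries). dBET1 is a PROTAC, a small molecule with one end that binds the bromodomains of BET proteins and another that binds cereblon (CRBN), an adaptor of an E3 ubiquitin ligase, so that the BET proteins are marked for the proteasome. Both groups were the same cell line, with no genetic change named in the labels, so the comparison asks what 24 h of the degrader did to RNA levels in 1 cell line at 1 dose.

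Glycolysis turns glucose into pyruvate in the cytosol and yields ATP and NADH. Lactate dehydrogenase then returns NADH to NAD+ by turning pyruvate into lactate, which monocarboxylate transporters carry out of the cell. The pentose phosphate pathway branches off at glucose phosphate: its oxidative arm makes NADPH, and its non-oxidative arm makes ribose phosphate for nucleotides. Leukemia cells, like many dividing cells, are known for high glucose use with lactate release, and several of these enzymes are textbook targets of MYC and of the hypoxia factor HIF1.

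The libraries held 28019956 to 34685645 counts. Replicates differed by more than counting noise, with a chi-square per degree of freedom of 23.6 in the DMSO pair and 8.14 in the dBET1 pair. The labels do not say whether the libraries of a group came from separate cultures, and the methods of the study speak of independent repeats for its experiments in general without naming these libraries, so p-values measure the spread between these libraries, which may be technical. With 2 libraries in each group, an exact permutation test of a single value cannot go below p = 0.333 (two-sided), and calls therefore rest on the fit across all genes. Against the label, the 5 genes of granule enzymes that define promyelocytes reached only 17 and 15 counts in all with DMSO, and 55 and 25 with dBET1. ELANE and CTSG stood at 0 in all 4 libraries. The wider list of 8 promyelocyte and neutrophil genes summed to 29.9 and 30.5 CPM with DMSO and to 24.0 and 23.1 CPM with dBET1, with 1 gene lower and 1 higher of 5 tested. The lower gene was LYZ. The higher one was MPO, with 0 counts in both DMSO libraries and 22 and 10 counts with dBET1, so it entered the test only through its dBET1 libraries. CPM is the count scaled to a normalized library size of 1000000. In contrast, all 9 erythroid genes on the list were detected. They summed to 4206 and 5036 CPM with DMSO and to 2692 and 2686 CPM with dBET1. Of the 9, 8 were lower, beside 27.6% of all tested genes and 61.5% of those with a mean of at least 100 CPM. Higher calls made up 28.0% of all tested genes. The list of 5 B and T cell genes summed to 29.9 and 33.9 CPM with DMSO and to 12.9 and 13.1 CPM with dBET1 (1 of 3 tested was lower, with MS4A1 at 0 in every library), and EPCAM of the 2 epithelial genes fell from 56.8 and 55.5 to 14.3 and 15.1 CPM while CDH1 stood at 0. The part of these shifts in the results that follow was not tested, and in bulk RNA fewer cells of a type cannot be told apart from less RNA per cell.

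Most genes of glucose use fell. Of the 35, 22 were lower and 6 were higher after dBET1, and 7 did not pass the test (edgeR quasi-likelihood test, Benjamini-Hochberg adjusted p under 0.05 over all tested genes). Among all tested genes, 27.6% were lower and 28.0% were higher by the same rule. The median log2 fold change was -0.46 over the 35 genes and 0.05 over all tested genes. With a further limit on the size of the change (an absolute log2 fold change above 1), 10 were lower (HK2, PKLR, LDHA, HK1, RPIA, TPI1, PGAM1, PFKP, LDHB and RPE) and 2 were higher (TIGAR and H6PD), against 8.54% and 16.9% of all tested genes. TIGAR entered the test only through its dBET1 libraries, so its higher call adds no support to these counts. Scaling to total counts alone moved the median of all genes up by 0.21, and gave 19 lower and 8 higher genes of the set (29.6% of calls higher, against 21.4%), with 7 and 3 past the fold limit (30.0% of calls higher, against 16.7%). Of all genes called, 50.4% were higher with TMM factors and 65.2% with total counts.

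Calls were not alike at all levels. In the 2226 genes with a mean of at least 100 CPM, 61.5% were lower and 13.7% were higher, with 15.9% and 1.62% past the fold limit. The 19 genes of the set above that level gave 15 lower (78.9%) and 1 higher, with 6 lower and 0 higher past the fold limit. Their median log2 fold change was -0.71, against -0.40 over all tested genes of that level. Together the 35 genes took up 1.49% and 1.55% of all counts with DMSO and 1.06% and 1.04% with dBET1, so their combined share was lower in both dBET1 libraries than in either DMSO library. The 19 glycolysis enzymes alone went from 1.29% and 1.35% to 0.878% and 0.866%.

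**Figure D1:**
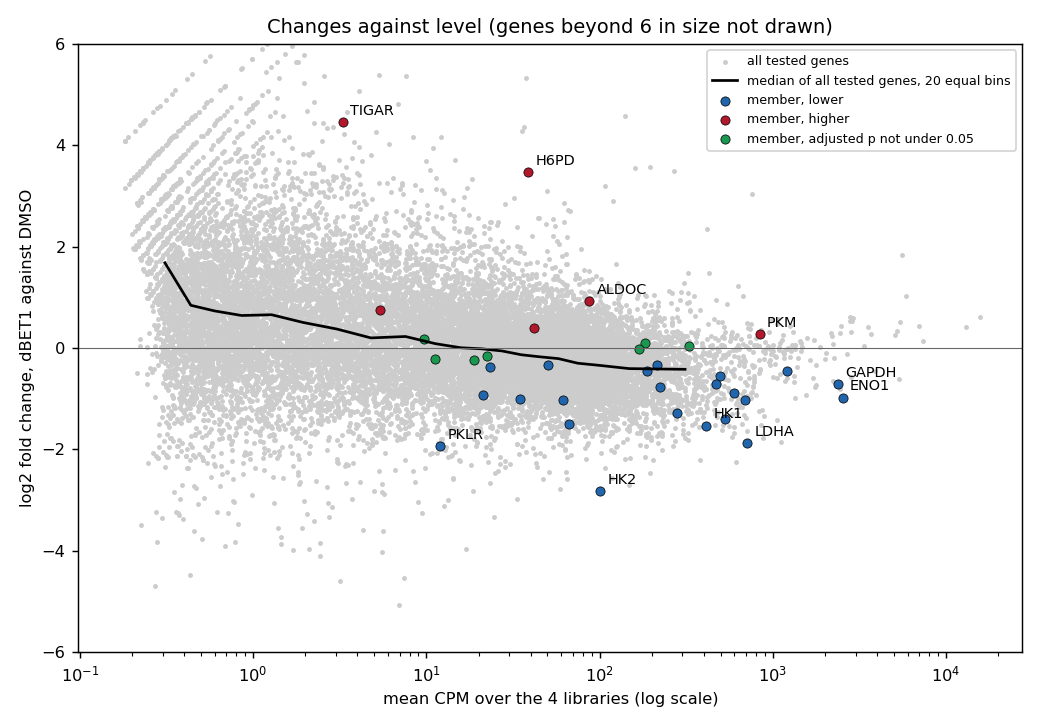
Each point is a tested gene, with the mean CPM over the 4 libraries on a log axis against the log2 fold change of dBET1 over DMSO, and the black line is the median in 20 bins of equal gene number. The genes of glucose use are drawn in colour; HK2 at -2.83 and LDHA at -1.88 lie far below the line, and H6PD at 3.47 and TIGAR at 4.46 far above it.

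The sequence just upstream of HK2 and LDHA, the lower genes with the smallest p, and of H6PD and TIGAR, the higher genes past the fold limit, is shown because the results turn on them, and these 4 were chosen after their values were seen. Each run is the 250 bases before a RefSeq gene start (GRCh38.p14). Capitals mark ACGTG or its reverse complement CACGT, a core that HIF1 can bind. Other sequences that HIF1 may bind were not marked or counted. A run of capitals CACGTG is an E-box, the hexamer that MYC with MAX, and MLXIP or MLXIPL with MLX, can bind, and it contains that core on each strand. RefSeq lists 2 starts for HK2, both shown, and 2 for LDHA, of which the upstream one is shown. The RefSeq starts of H6PD and TIGAR lie 5073 and 13450 bases inside the genes as GENCODE draws them, so their windows are not at the GENCODE start.
HK2 upstream start, chr2:74833877-74834126, plus strand: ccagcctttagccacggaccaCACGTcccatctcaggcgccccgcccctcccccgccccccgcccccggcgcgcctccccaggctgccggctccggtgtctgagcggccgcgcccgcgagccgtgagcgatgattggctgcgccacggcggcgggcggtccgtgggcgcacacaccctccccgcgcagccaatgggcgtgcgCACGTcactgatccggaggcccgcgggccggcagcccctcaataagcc
HK2 downstream start, chr2:74834920-74835169, plus strand: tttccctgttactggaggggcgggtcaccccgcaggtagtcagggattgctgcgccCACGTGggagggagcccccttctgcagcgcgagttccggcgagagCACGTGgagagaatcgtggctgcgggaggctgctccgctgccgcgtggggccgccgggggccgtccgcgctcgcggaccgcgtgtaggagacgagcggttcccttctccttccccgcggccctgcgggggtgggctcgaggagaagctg
LDHA, chr11:18394313-18394562, plus strand: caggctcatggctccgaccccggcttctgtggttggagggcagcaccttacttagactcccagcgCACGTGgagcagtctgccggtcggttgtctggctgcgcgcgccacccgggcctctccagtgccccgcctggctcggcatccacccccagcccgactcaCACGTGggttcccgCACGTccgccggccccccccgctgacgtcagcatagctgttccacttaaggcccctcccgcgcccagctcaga
H6PD, chr1:9239597-9239846, plus strand: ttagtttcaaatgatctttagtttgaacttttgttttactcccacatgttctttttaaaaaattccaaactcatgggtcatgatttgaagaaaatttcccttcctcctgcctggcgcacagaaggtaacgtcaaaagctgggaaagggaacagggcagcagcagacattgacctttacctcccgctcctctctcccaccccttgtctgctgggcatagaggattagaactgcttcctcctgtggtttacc
TIGAR, chr12:4320963-4321212, plus strand: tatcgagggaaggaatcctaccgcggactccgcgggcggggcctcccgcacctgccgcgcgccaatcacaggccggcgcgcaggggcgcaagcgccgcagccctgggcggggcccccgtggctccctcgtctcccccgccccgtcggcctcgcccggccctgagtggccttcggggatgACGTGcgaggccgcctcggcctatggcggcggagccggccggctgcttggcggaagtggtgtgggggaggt

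The downstream HK2 start held 2 E-boxes, which began 194 and 149 bases before it, while the upstream HK2 start held 2 cores outside an E-box, 229 and 48 bases before it. The upstream LDHA start held 2 E-boxes, 185 and 87 bases before it, with a further core at 73 bases, while its downstream start, not shown, held neither. TIGAR held 1 core, 71 bases before its start, and H6PD held neither. Over both strands, the E-box CACGTG was found upstream of 7 of 59 starts of the 32 genes that matched the RefSeq table (11.9%, against 6.34% of 35116 starts of all genes). ACGTG, which every E-box also contains, was found at 20 of the 59 (33.9%, against 18.5%), and the GC box GGGCGG, which SP1 binds, at 36 (61.0%, against 42.6%). Of 43 starts of lower genes, 6 held an E-box, against 1 of 10 starts of higher genes and 0 of 6 starts of genes that did not pass the test. A gene with several starts counts more than once here, as HK1 and PFKM do among the lower genes and SLC16A3 among the higher genes. The 7 genes with an E-box at any start were HK2, LDHA, PKLR, GAPDH, ALDOA, PFKFB3 and, as the one that was higher, ALDOC. These are letter matches in a short window and not measured binding.

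Both hexokinases, which trap glucose in the cell by phosphorylating it, fell. HK2 (ENSG00000159399, chr2:74834127-74893359), the hexokinase isozyme typical of tumour cells, stood at 185 and 170 CPM with DMSO and at 25.9 and 24.0 CPM with dBET1. Both DMSO libraries stood far above both dBET1 libraries, and the log2 fold change was -2.83 (SE 0.0922, edgeR adjusted p = 2.36e-06), the 4th smallest p among all lower genes. HK1 (ENSG00000156515, chr10:69269984-69401884), the broadly expressed hexokinase, went from 597 and 630 to 210 and 213 CPM, a log2 fold change of -1.53 (SE 0.0706, edgeR adjusted p = 8.34e-06). Neither hexokinase overlapped between groups, a weak mark by itself since 37.4% of all tested genes were lower in both dBET1 libraries than in either DMSO library and 41.9% were higher in both (23 and 8 of the 35 genes). Per kilobase of exon, HK1 was the more abundant in every library, and HK2 made up 26.4% and 23.8% of the pair with DMSO and 12.5% and 11.6% with dBET1. Their sum went from 119 to 35.0 CPM per kilobase, a ratio of 0.294 and the lowest of the 9 isozyme families compared.

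**Figure D2:**
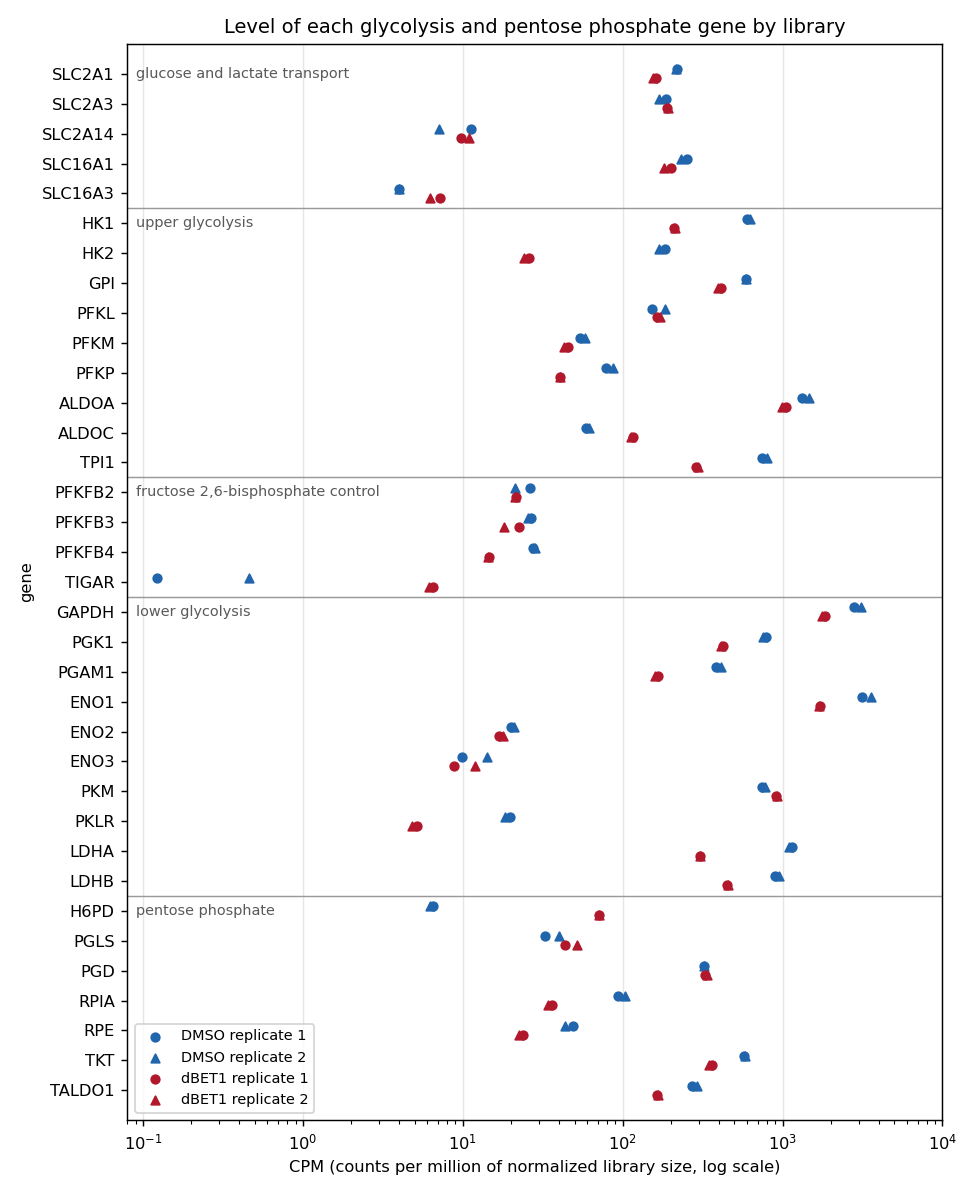
Each row is a gene and each point a library, with CPM on a log axis; circles and triangles are replicates 1 and 2, blue is DMSO and red is dBET1, and lines part the steps of the pathway. HK2 drops from 185 and 170 to 25.9 and 24.0 CPM, while H6PD goes the other way, from 6.53 and 6.23 to 70.9 and 70.6 CPM.

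In the steps from glucose phosphate to triose phosphate, 5 of the other 7 genes fell and 1 rose. The shares were 27.6% lower and 28.0% higher over all tested genes. Over those with a mean of at least 100 CPM they were 61.5% and 13.7%. TPI1, which interconverts the triose phosphates, went from 744 and 797 to 288 and 298 CPM (log2 fold change -1.40, SE 0.0727, edgeR adjusted p = 1.18e-05). GPI, which makes fructose phosphate from glucose phosphate, went from 592 and 591 to 410 and 394 CPM (log2 fold change -0.56, SE 0.0672, edgeR adjusted p = 0.000327). TPI1 and GPI were lower in each dBET1 library than in either DMSO library, as were 37.4% of all tested genes. Phosphofructokinase, the rate-setting step of glycolysis, behaved unevenly across its 3 genes. The platelet form PFKP went from 79.1 and 86.6 to 40.4 and 40.5 CPM (log2 fold change -1.03, SE 0.0892, edgeR adjusted p = 6.66e-05). The muscle form PFKM went from 53.8 and 57.9 to 45.6 and 42.9 CPM (log2 fold change -0.33, SE 0.0918, edgeR adjusted p = 0.0160). PFKM shares 516 exonic bases with SENP1 on the opposite strand, and its call was lost with total counts (adjusted p = 0.282) and without dBET1 replicate 1 or 2 (adjusted p = 0.0848 and 0.160). The liver form PFKL, the most abundant of the 3 per kilobase, stood at 153 and 184 CPM with DMSO and at 164 and 171 CPM with dBET1, so its groups overlapped (log2 fold change -0.01, edgeR adjusted p = 0.958). PFKL made up 49.3% and 51.9% of the family with DMSO and 61.5% and 63.2% with dBET1, and PFKP went from 29.3% and 28.0% to 17.4% and 17.2%, while the family's sum went from 37.2 to 30.1 CPM per kilobase.

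Aldolase, which splits fructose bisphosphate, moved in opposite directions in its 2 genes. ALDOA, the main form, went from 1323 and 1470 to 1054 and 994 CPM (log2 fold change -0.45, SE 0.0777, edgeR adjusted p = 0.00196). ALDOC, known as the brain form, went from 59.2 and 61.8 to 116 and 112 CPM (log2 fold change 0.92, SE 0.0801, edgeR adjusted p = 6.93e-05). ALDOC was thus the single enzyme of upper glycolysis that rose, and its share of the pair went from 6.15% and 5.80% to 13.9% and 14.2%. ALDOA still made up most of the pair in every library, and the sum fell with it from 388 to 311 CPM per kilobase.

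**Figure D3:**
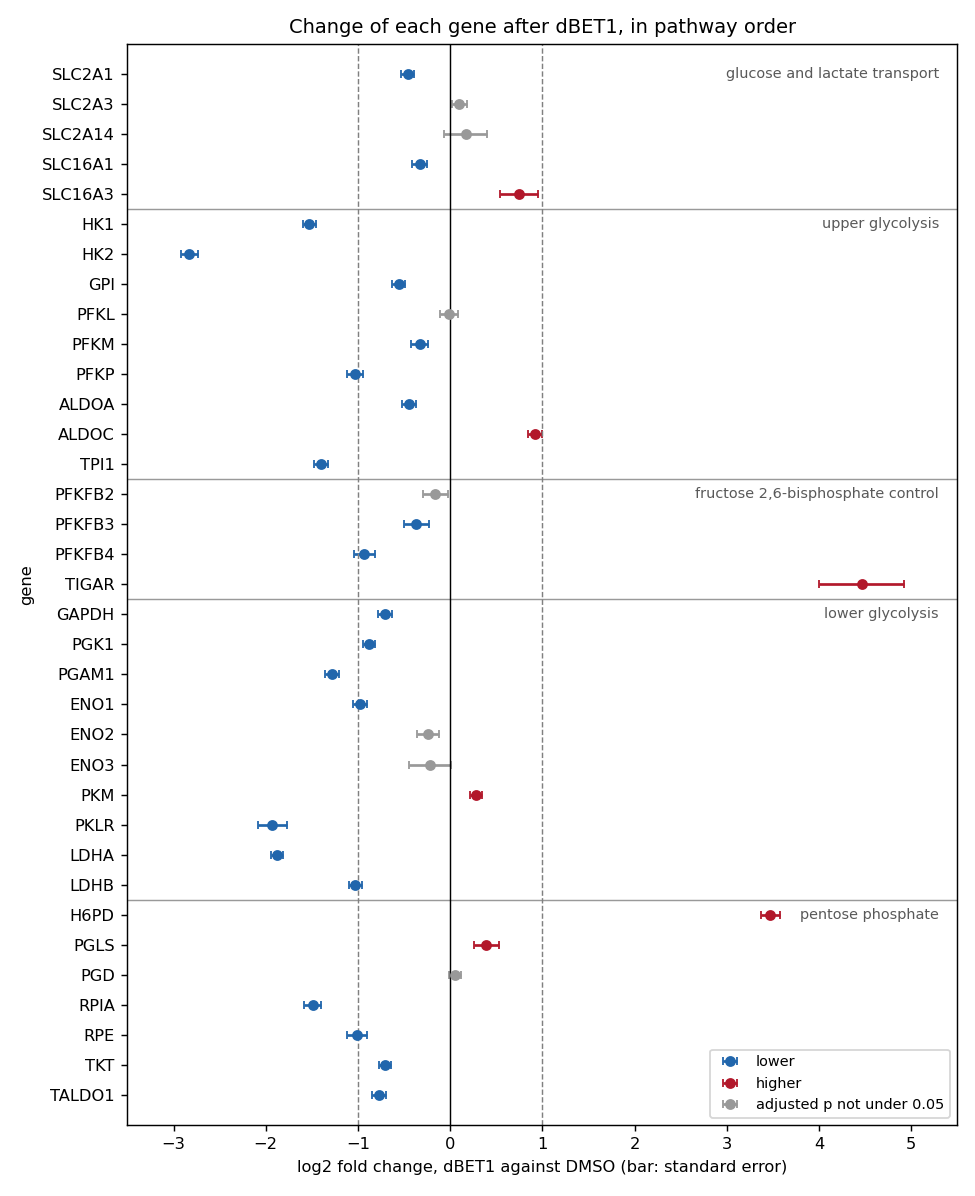
Log2 fold changes of dBET1 over DMSO from edgeR in pathway order, with the standard error as a bar; blue is lower, red is higher and grey did not pass the test, and dashed lines mark the fold limit. Left of zero lie 22 called genes, and right of it 6, of which TIGAR at 4.46 has the widest bar (SE 0.458).

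Lower glycolysis fell at nearly every step before pyruvate. GAPDH, which makes the first NADH, went from 2807 and 3098 to 1842 and 1756 CPM (log2 fold change -0.71, SE 0.0749, edgeR adjusted p = 0.000163). PGK1, the first ATP-forming step, went from 784 and 755 to 425 and 412 CPM (log2 fold change -0.88, SE 0.0680, edgeR adjusted p = 4.16e-05). PGAM1, the mutase of phosphoglycerate, went from 382 and 410 to 165 and 160 CPM (log2 fold change -1.28, SE 0.0743, edgeR adjusted p = 1.47e-05). None of these 3 genes overlapped between groups, and 37.4% of all tested genes were likewise lower in both dBET1 libraries than in either DMSO library. ENO1, the main enolase, went from 3153 and 3571 to 1714 and 1701 CPM (log2 fold change -0.98, SE 0.0783, edgeR adjusted p = 4.78e-05), just short of the fold limit. The minor enolases ENO2 and ENO3 ran from 16.9 to 21.0 CPM and from 8.80 to 14.2 CPM over the 4 libraries and did not pass the test, and ENO3 shares 111 exonic bases with PFN1, which is many times more abundant. ENO1 made up 97.9% to 98.9% of the enolases per kilobase over the 4 libraries.

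Pyruvate kinase, the last step of glycolysis, was the exception. PKM, which encodes both the M1 and the M2 form, went from 741 and 774 to 911 and 929 CPM (log2 fold change 0.28, SE 0.0667, edgeR adjusted p = 0.00852). It was higher in each dBET1 library than in either DMSO library, but the call was lost without dBET1 replicate 1 or 2 (adjusted p = 0.0935 and 0.141). PKLR, the red cell and liver form, went from 19.7 and 18.3 to 5.16 and 4.78 CPM (log2 fold change -1.93, SE 0.157, edgeR adjusted p = 5.10e-05). PKLR shares 556 exonic bases with HCN3 on the opposite strand, whose counts came to 76.6% of those of PKLR. PKLR was a small part of the family, 6.72% and 6.02% with DMSO and 1.51% and 1.37% with dBET1, and pyruvate kinase was the one family whose sum was higher with dBET1, at 109 against 94.3 CPM per kilobase. The erythroid marker genes fell in the same libraries, as given above, and their part in the PKLR value was not tested.

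At the branch from pyruvate to lactate, both subunit genes fell. LDHA (ENSG00000134333, chr11:18394560-18408425), the muscle-type subunit that favours lactate formation, went from 1143 and 1099 to 307 and 303 CPM. That is a log2 fold change of -1.88 (SE 0.0687, edgeR adjusted p = 3.53e-06), the 10th smallest p among all lower genes. LDHB, the heart-type subunit, went from 896 and 950 to 451 and 453 CPM (log2 fold change -1.03, SE 0.0690, edgeR adjusted p = 2.45e-05). LDHB was the more abundant per kilobase in all 4 libraries, and LDHA went from 38.7% and 36.4% of the pair to 25.2% and 24.9%. Without division by length, LDHA was ahead in both DMSO libraries and LDHB in both dBET1 libraries. The lead of LDHB with DMSO thus rests on the exon lengths used, 6026 bases for LDHA and 2983 for LDHB. The sum of the pair went from 495 to 202 CPM per kilobase, a ratio of 0.408.

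**Figure D4:**
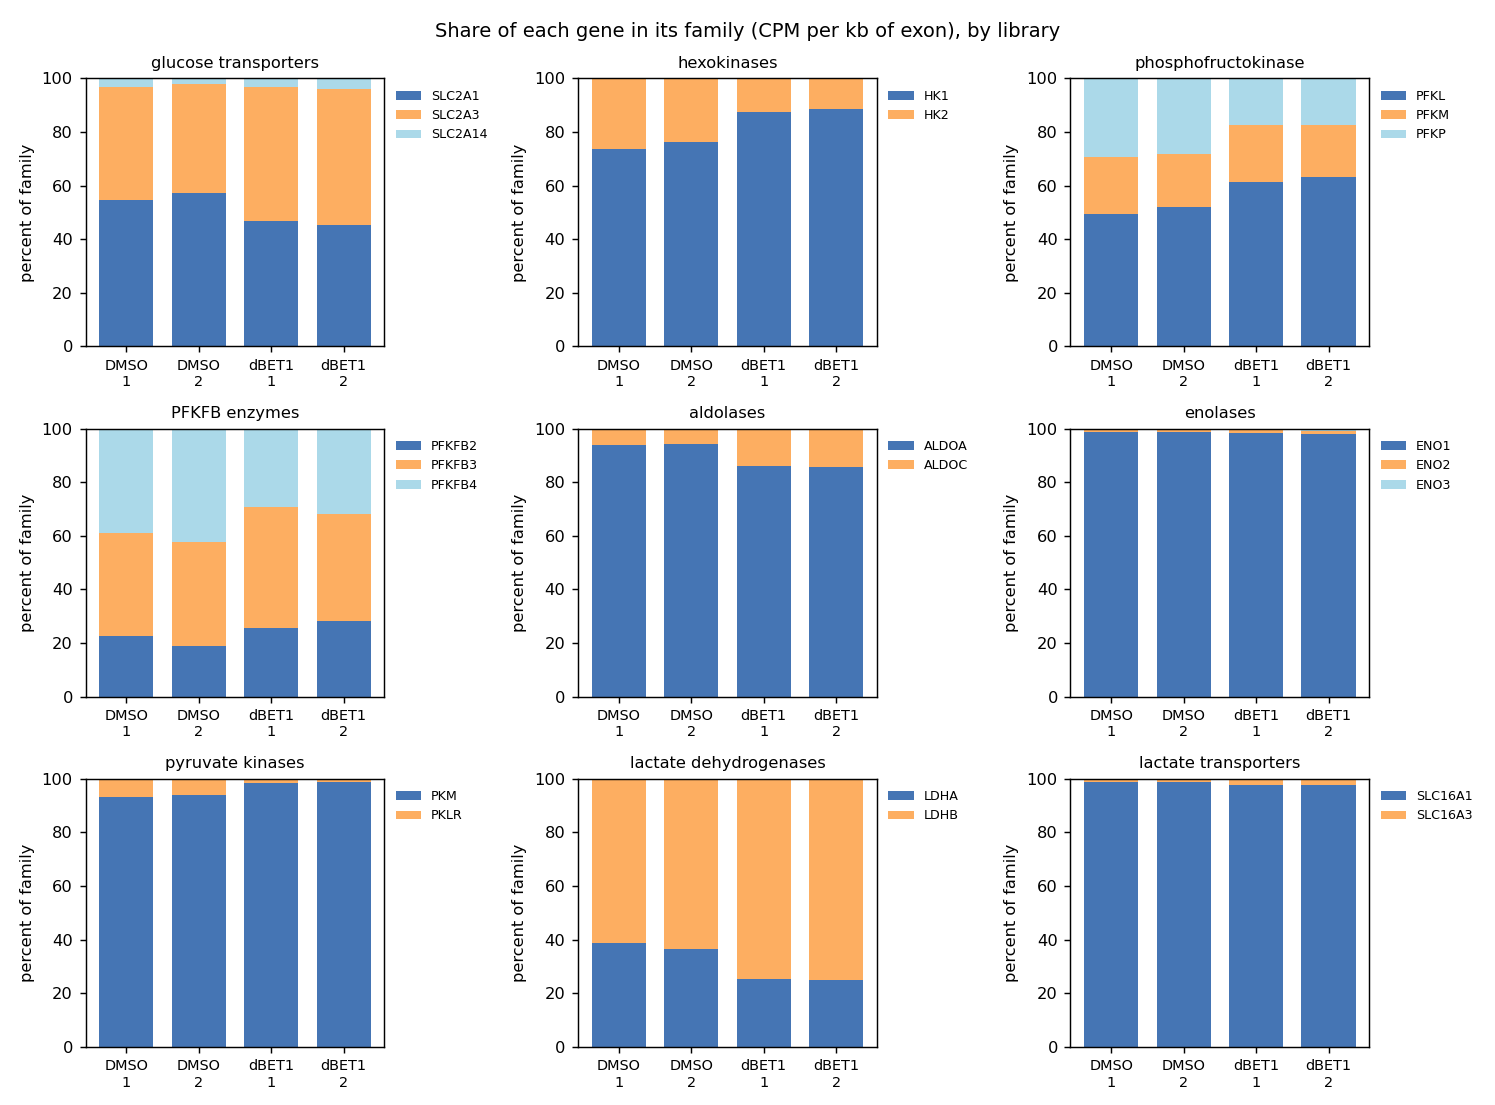
Bars show the percent of each isozyme family, by CPM per kilobase of exon, in each of the 4 libraries, and each bar adds up to the whole family. HK2, PFKP, PKLR and LDHA take up less of their families in both dBET1 libraries, and ALDOC takes up more.

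Of the 5 transporters, 2 fell and 1 rose, beside 27.6% and 28.0% of all tested genes, with 0 past the fold limit. So few genes near those shares say little about transporters as a group. SLC2A1 (GLUT1), the broadly expressed glucose transporter, went from 220 and 216 to 162 and 154 CPM (log2 fold change -0.46, SE 0.0723, edgeR adjusted p = 0.00120). SLC2A3 (GLUT3), a transporter of high affinity, stood at 186 and 168 CPM with DMSO and at 189 and 191 CPM with dBET1 (log2 fold change 0.10, SE 0.0779, edgeR adjusted p = 0.298), and it passed the test as higher with total counts only (log2 fold change 0.31, adjusted p = 0.0141). The leading transporter per kilobase was SLC2A1 with DMSO (54.6% and 57.1%) and SLC2A3 with dBET1 (49.8% and 51.0%). SLC2A14, a near-identical copy of SLC2A3 that can share its reads, stayed between 7.08 and 11.2 CPM and did not pass the test. The lactate transporter SLC16A1 (MCT1) went from 251 and 230 to 199 and 183 CPM (log2 fold change -0.33, SE 0.0820, edgeR adjusted p = 0.0101), and its call was lost without dBET1 replicate 2 (adjusted p = 0.136) and with total counts (adjusted p = 0.252). SLC16A3 (MCT4), the exporter typical of strongly glycolytic cells, was rare and went from 4.01 and 4.02 to 7.23 and 6.26 CPM (log2 fold change 0.75, SE 0.206, edgeR adjusted p = 0.0164). The SLC16A3 call was lost without dBET1 replicate 1 (adjusted p = 0.116), and 482 of its exonic bases lie opposite the far more abundant CSNK1D. SLC16A1 made up 97.6% to 98.9% of the pair per kilobase over the 4 libraries.

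Fructose 2,6-bisphosphate made by the PFKFB enzymes is the strongest activator of phosphofructokinase, and TIGAR is a phosphatase that removes it. PFKFB4 went from 27.4 and 28.2 to 14.6 and 14.5 CPM (log2 fold change -0.93, SE 0.116, edgeR adjusted p = 0.000369). PFKFB3, the form with the highest kinase activity, went from 26.9 and 25.7 to 22.6 and 18.1 CPM (log2 fold change -0.37, SE 0.136, edgeR adjusted p = 0.0491), and its call was lost in 7 of 11 alternative settings, among them without DMSO replicate 1 (adjusted p = 0.0624) and without dBET1 replicate 2 (adjusted p = 0.336). PFKFB2 overlapped between groups, at 26.3 and 21.1 CPM against 21.4 and 21.2 CPM, and it shares 315 exonic bases with YOD1 on the opposite strand. PFKFB4 led the 3 genes per kilobase with DMSO (39.1% and 42.3%), and PFKFB3 led with dBET1 (45.1% and 40.0%).

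TIGAR (ENSG00000078237, chr12:4307763-4360028) went the other way. Its 4 and 13 counts with DMSO stood against 196 and 187 with dBET1, which is 0.123 and 0.463 CPM against 6.53 and 6.13 CPM. The groups lay far apart, with a log2 fold change of 4.46 (SE 0.458, edgeR adjusted p = 0.000150). TIGAR passed the filter on low counts only through its dBET1 libraries, the group where it was high. Its p-value and its higher call are therefore no independent support for the rise. The low DMSO counts also left the size of the change poorly fixed, between 3.73 without DMSO replicate 1 and 5.61 without DMSO replicate 2. CCND2, the nearest tested protein-coding gene upstream on the same strand, ends 2410 bp before the GENCODE start of TIGAR, which lies upstream of the RefSeq start shown above. It went from 53.2 and 62.6 to 81.6 and 79.0 CPM (log2 fold change 0.47, SE 0.100, edgeR adjusted p = 0.00506), and whether its reads reach into TIGAR was not tested.

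The pentose phosphate pathway divided between its arms. H6PD (ENSG00000049239, chr1:9234774-9271337), which runs the first oxidative steps inside the endoplasmic reticulum, was counted 213 and 175 times with DMSO and 2128 and 2156 times with dBET1. In CPM it went from 6.53 and 6.23 to 70.9 and 70.6, a log2 fold change of 3.47 (SE 0.105, edgeR adjusted p = 2.18e-06) and the 11th smallest p among all higher genes. Its mean CPM with dBET1 was 11.1 times that with DMSO, and the replicates of each group lay close together. Of the cytosolic oxidative enzymes, PGLS, which opens the lactone ring, went from 32.5 and 40.2 to 43.3 and 51.7 CPM (log2 fold change 0.39, SE 0.134, edgeR adjusted p = 0.0396). That call was lost without DMSO replicate 1 (adjusted p = 0.124) and without dBET1 replicate 2 (adjusted p = 0.312). PGD, which releases carbon dioxide and the second NADPH, stood at 322 and 321 CPM against 328 and 339 CPM (log2 fold change 0.05, SE 0.0676, edgeR adjusted p = 0.529), and it passed the test as higher with total counts only (log2 fold change 0.26, adjusted p = 0.0126).

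All 4 genes of the non-oxidative arm fell. RPIA, which forms ribose phosphate, went from 93.4 and 104 to 36.0 and 34.0 CPM (log2 fold change -1.49, SE 0.0937, edgeR adjusted p = 1.98e-05). RPE, the epimerase of ribulose phosphate, went from 49.2 and 43.3 to 23.7 and 22.4 CPM (log2 fold change -1.01, SE 0.108, edgeR adjusted p = 0.000188), with 840 exonic bases shared with KANSL1L on the opposite strand. TKT, a transketolase, went from 577 and 585 to 361 and 349 CPM (log2 fold change -0.71, SE 0.0673, edgeR adjusted p = 9.91e-05). TALDO1, the transaldolase that works with TKT to return sugars to glycolysis, went from 272 and 292 to 164 and 167 CPM (log2 fold change -0.77, SE 0.0739, edgeR adjusted p = 0.000108). Each of the 4 genes was lower in both dBET1 libraries than in either DMSO library, as were 37.4% of all tested genes.

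Because GAPDH fell as well, a value set against it reads differently from one scaled to the library. Relative to GAPDH, the log2 change of HK2 was -2.11 and that of LDHA was -1.16, while TKT stood at 0.00 and TALDO1 at -0.05. PGD and PFKL, which did not pass the test per library, came out at 0.77 and 0.71 relative to GAPDH, and PKM came out at 1.00. The genes of the pathway changed unequally, and any that fell by less than GAPDH reads as higher against it.

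Of 54 further genes listed for side steps, rarer isozymes, other transporters and reverse steps, 31 were tested, of which 13 were lower, 8 were higher and 10 did not pass (median log2 fold change -0.17, against 0.05 over all tested genes). Higher calls (8 of 31) were thus close to their share of 28.0% among all tested genes, while lower calls (13 of 31) were above the share of 27.6%. With total counts, 7 were lower and 11 were higher (61.1% of calls higher, against 38.1%), and 7 were lower without dBET1 replicate 1 and likewise without replicate 2. Past the fold limit, 2 were lower and 7 were higher, beside 8.54% and 16.9% of all tested genes. The number of lower calls moved with the setting, so these counts say little about the list as a whole, and its genes are given for their own values. MPC1, a subunit of the carrier that brings pyruvate into mitochondria, went from 41.5 and 46.8 to 21.0 and 20.9 CPM (log2 fold change -1.07, SE 0.108, edgeR adjusted p = 0.000133), and its partner MPC2 from 87.6 and 106 to 76.6 and 73.4 CPM (log2 fold change -0.36, edgeR adjusted p = 0.0192). Both subunits were lower in each dBET1 library than in either DMSO library, as were 37.4% of all tested genes. DERA, an aldolase that feeds deoxyribose phosphate into glycolysis, went from 9.32 and 8.93 to 19.4 and 20.5 CPM (log2 fold change 1.13, SE 0.138, edgeR adjusted p = 0.000349). BSG, the chaperone of the lactate transporters, went from 742 and 857 to 1202 and 1159 CPM (log2 fold change 0.56, SE 0.0842, edgeR adjusted p = 0.000965). BPGM, which makes bisphosphoglycerate in red cells, did not pass the test (9.25 and 10.3 CPM against 13.7 and 11.7 CPM, edgeR adjusted p = 0.0838). PGM1, which links glycogen to glucose phosphate, had 0 counts in both DMSO libraries and 2 counts in each dBET1 library and was not tested.

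The known regulators of these genes were counted in the same libraries, with no test of a link to the enzymes. MYC, which drives many genes of glucose use, went from 445 and 465 to 278 and 269 CPM (log2 fold change -0.73, SE 0.0696, edgeR adjusted p = 0.000101), and its partner MAX went from 76.7 and 81.8 to 46.6 and 46.6 CPM (log2 fold change -0.77, edgeR adjusted p = 0.000217). Both were lower in each dBET1 library than in either DMSO library, as were 37.4% of all tested genes. HIF1A did not pass the test (36.5 and 34.0 CPM against 34.2 and 34.6 CPM, edgeR adjusted p = 0.773), though HIF1 is controlled mainly through protein stability. Its relative EPAS1 rose by 0.35 and its partner ARNT by 0.54 on the log2 scale (edgeR adjusted p = 0.0147 and 0.00266). The glucose sensor MLXIP (MondoA) went from 201 and 213 to 347 and 362 CPM (log2 fold change 0.78, SE 0.0720, edgeR adjusted p = 9.10e-05). TXNIP, a MondoA target whose protein restrains glucose uptake, went from 171 and 157 to 1337 and 1348 CPM (log2 fold change 3.04, SE 0.0776, edgeR adjusted p = 1.09e-06), the 6th smallest p among all higher genes. MLXIPL (ChREBP), the liver counterpart of MLXIP, was rare and rose from 12 and 10 counts to 27 and 26 counts (log2 fold change 1.26, SE 0.426, edgeR adjusted p = 0.0359). MLXIPL passed the filter on low counts only through its dBET1 libraries, the group where it was high. Its p-value therefore adds no support for the rise. SP1 went from 114 and 90.1 to 78.0 and 78.2 CPM (log2 fold change -0.39, edgeR adjusted p = 0.0227).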

How the data were processed

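RNA was sequenced from cells labelled NB4 treated for 24 h with 8 μM dBET1 or DMSO, 2 libraries in each group. The authors aligned paired-end reads to hg38 with HISAT2 2.2.0 and used StringTie for abundances. The deposited values are raw whole-number counts for each gene. The counting step and its strand setting are not given in the sources used here, so genes that share exons on opposite strands can share counts. Columns headed NC were taken as the DMSO libraries by time and replicate number, and 0 columns were left out. Symbols and positions came from GENCODE 44 on hg38 (56105 of 64252 identifiers found; the others held 2.57% of counts), and sequences from RefSeq.

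Counts were tested with edgeR 4.0.16 in R 4.3.3: filterByExpr, TMM factors (0.918 to 1.08), the quasi-likelihood test on group alone, and Benjamini-Hochberg adjustment over 17971 genes. A gene was called at an adjusted p under 0.05, and changes larger than 1 in size on the log2 scale were past the fold limit. Both limits follow the study's methods, which used DESeq2. Standard errors were the log2 fold change over the square root of F. CPM used normalized library sizes, and isozyme shares used CPM per kilobase of exon union, without a test. The biological coefficient of variation was 0.123. The script was tested on simulated counts. Alternatives were DESeq2 1.42.0, its size factors, total counts only, no filter on low counts, a minimum of 10 counts in every library, a replicate block, counts divided by 2, and each library left out. The members and the lists were chosen with earlier results of these data known. Named genes are the 35 members, the listed regulators (1 of them is not reported here), BPGM, PGM1, MPC1, MPC2, BSG and other pathway genes past both limits with at least 10 CPM in a group; CCND2 and genes sharing exons were named after their values were seen, as were those in the other observations.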

Additional observations from a re-analysis of the deposited data

How the results depend on the processing

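Of the 28 called genes of the set, 22 kept their call in each of the 11 alternatives in which they were tested. TIGAR was not tested with at least 10 counts in every library, which left 1 gene higher past the fold limit. PFKM, PKM, SLC16A1, SLC16A3 and PGLS lost the call in the settings named with their values, and SLC16A3 and PGLS also lost it without a count filter. PFKFB3 lost it with DESeq2 (adjusted p = 0.0533), with total counts, without a count filter and with at least 10 counts in every library. It also lost it with counts divided by 2, without DMSO replicate 1 and without dBET1 replicate 2. The cause of these losses was not tested. The median of the set was -0.25 with total counts and -0.55 to -0.47 with each library left out. Lower genes among the 54 other pathway genes numbered 7 with total counts and 7 to 13 with each library left out. Higher genes among all tested genes numbered 3356 to 5118 with each library left out, the lowest without dBET1 replicate 2. Direction turned only in genes that had not passed the test. PFKL gave 0.20 with total counts, 0.06 with at least 10 counts in every library, 0.03 with counts divided by 2 and -0.16 to 0.10 with each library left out. PFKFB2 gave 0.05 with total counts, PGD gave -0.00 with no count filter, SLC2A14 gave -0.15 to 0.51 and ENO3 gave -0.49 to 0.04 with each library left out. PFKP, LDHB and RPE lay near the fold limit and fell short of it with total counts (-0.82, -0.82 and -0.80), with at least 10 counts in every library (-0.96, -0.96 and -0.93) and with counts divided by 2. ENO1 passed it without DMSO replicate 1 (-1.09), and ALDOC with total counts (1.13). The same isozyme led its family in all 4 libraries in 7 of 9 families per kilobase of exon, in 8 by the longest transcript and in 6 without division by length. Replicate deviations did not correlate between the groups (r = -0.00753 across genes), which gave no sign of a pairing by replicate number. A single difference per group cannot settle whether the libraries were handled in pairs, and the labels name no pairing. The replicate block gave 22 lower and 6 higher genes of the set and 4897 lower and 4976 higher of all genes. With 2 libraries in each group, SDs and standard errors are themselves uncertain, and TIGAR, SLC16A3 and SLC2A14 rest on low counts.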

Other observations

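Some rarely expressed genes of sugar handling, chosen after their values were seen, were also far apart between the groups. SLC2A4 (GLUT4), the insulin-responsive glucose transporter, was counted 79 and 84 times with DMSO and 4 and 7 times with dBET1 (log2 fold change -3.86, SE 0.420, edgeR adjusted p = 0.000196). It passed the filter on low counts only through its DMSO libraries, where it was high, so its p-value adds no support. SLC2A11 was counted 57 and 53 times with DMSO and 209 and 177 times with dBET1 (log2 fold change 1.81, SE 0.242, edgeR adjusted p = 0.000529), and SLC2A12 had 22 and 26 against 101 and 81 counts (log2 fold change 1.91, SE 0.329, edgeR adjusted p = 0.00187). SLC2A9, a urate and sugar transporter, had 0 counts in both DMSO libraries and 24 and 42 counts with dBET1. RBKS, which phosphorylates ribose, was counted 2 and 0 times with DMSO and 33 and 21 times with dBET1.

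Among genes at moderate levels, both tested synthetases of phosphoribosyl pyrophosphate, the step that takes up ribose phosphate for nucleotides, were lower. PRPS1 went from 173 and 172 to 89.5 and 83.9 CPM (log2 fold change -0.99, SE 0.0766, edgeR adjusted p = 4.13e-05), and PRPS2 went from 59.6 and 53.7 to 31.4 and 28.4 CPM (log2 fold change -0.92, SE 0.103, edgeR adjusted p = 0.000221). GPD1L, a glycerol phosphate dehydrogenase, went from 23.3 and 19.3 to 10.3 and 11.3 CPM (log2 fold change -0.98, SE 0.152, edgeR adjusted p = 0.00115).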
